A study of Mus musculus with 6 samples.

Results

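The genes described here are 51 DNA repair genes, chosen by symbol from a list that spans the known repair pathways, and their transcript levels were read from the deposited poly(A) RNA table of mouse RPE/choroid. RPE/choroid is the retinal pigment epithelium, the pigmented cell layer behind the photoreceptors, together with the vessel layer beneath it. All 51 symbols were found among the 33924 genes of the table, and all 51 passed the minimum mean normalized count of 10 that the list was held to. In all, 18479 genes of the table passed that minimum, and they served as the background against which the repair genes were placed.

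DNA repair genes encode the enzymes that find and mend damaged bases, mispaired bases and broken strands. Base excision repair removes oxidized or deaminated single bases, nucleotide excision repair cuts out bulky lesions such as those made by ultraviolet light, and mismatch repair corrects errors left by the polymerase. Double-strand breaks are rejoined directly by end joining, which works throughout the cell cycle, or copied from the sister chromatid by homologous recombination, which needs replicated DNA. The RPE is a layer that hardly divides in the adult, faces light and oxygen throughout life and is known as a site of oxidative damage.

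The libraries came from 3 Young and 3 Aged wild-type C57BL/6J mice, with no allele, transgene or treatment in either group, and the design compares the ages. The labels give the Young mice as 1 to 2 months old. The Aged mice are 20 to 24 months old in the sample titles and 22 to 24 months in the time field. All mice are male per the labels, whereas the study's methods describe both sexes and another young age range. The values used here are the authors' mean over the 6 libraries of both ages, so they describe RPE/choroid of the 2 ages pooled and give no difference between Young and Aged mice. With no value for a single library, the spread between mice cannot be seen, and which neighbours in the order of levels differ beyond that spread cannot be said.

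The tissue was checked against marker genes. The RPE markers Rpe65, Rlbp1, Rgr, Ttr, Rdh5 and Lrat had mean normalized counts between 28192 and 397586, and the RPE channel gene Best1 had 81.8. The 4 pigment genes listed for melanocytes, Pmel, Dct, Tyr and Mlana, which the RPE also expresses, had 25408 to 256984. Markers of other cells were also present, with 16944 to 139449 for 5 rod photoreceptor genes, 5603 to 42490 for 4 skeletal muscle genes, 717 to 7369 for 5 endothelial genes and 3067 to 121895 for 3 macrophage genes. Of red cell genes, Hba-a1 was at 37845 and Alas2 at 1591. The 5 genes of dividing cells were at 38.6 to 477, and the proliferation marker Mki67 was at 160. The repair transcripts were therefore measured in a mixture of cells, their source among these cells was not tested, and in bulk tissue fewer cells of a type and less RNA per cell cannot be told apart.

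The repair genes had a median mean normalized count of 588, beside 668 over all genes of the background, with quartiles of 128 and 1965. Longer transcripts collect more reads, so genes were compared with each other per kilobase (kb) of the longest annotated transcript. On that scale the repair genes had a median of 165 mean normalized counts per kb, beside 214 for the background, and 18 of 51 (35.3%) lay above the background median. Per kb of coding sequence they had a median of 273 beside 532, and 12 of 51 (23.5%) lay above it. The median repair gene stood at percentile 44.4 of the background per kb. Ddb1, Parp1 and Xrcc5 were above the upper quartile of the background, 669 per kb, and 10 repair genes were below the lower quartile of 54.2 per kb. Together the 51 genes held 0.157% of the summed mean normalized counts of the table, and Ddb1 alone held 40.1% of that sum.

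**Figure D1:**
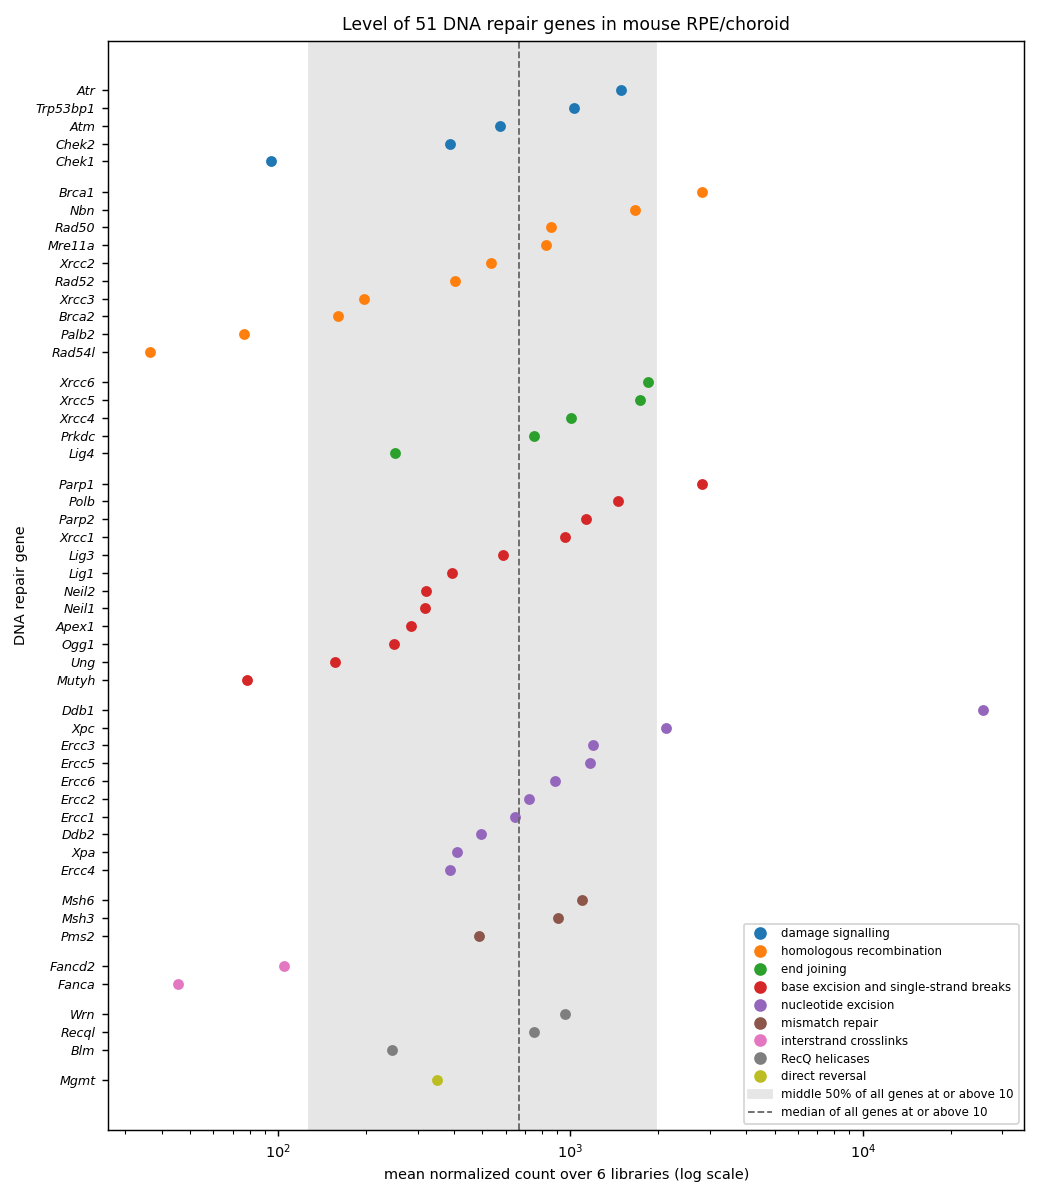
Mean normalized count over 6 libraries (x axis, log scale, not divided here by transcript length) of each of the 51 DNA repair genes. Genes are grouped and coloured by pathway, with no error since no value per library is given. The band runs between the quartiles of all genes at or above 10 and the dashed line is their median of 668. Ddb1 stands apart at 25755 and Rad54l is lowest at 36.4.

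Nucleotide excision repair had a median of 303 mean normalized counts per kb of longest transcript, the highest of the 9 pathways on this scale, and 7 of its 10 genes were above the background median. This rank depended on length. The pathway ranked 3 per coding kb, per kb of the median transcript and by count, with end joining first on each of these scales. Per coding kb its median of 435 lay below 532, the median of the protein-coding genes of the background. On that scale 3 of 10 genes (Ddb1, Xpc and Ercc1) lay above the median, but the background there leaves out noncoding genes. Ddb1, the damage-binding adaptor that also serves as the linker of the CUL4 ubiquitin ligases, reached a mean normalized count of 25755, or 5776 per kb, at percentile 96.6 of the background. Its partner Ddb2, which recognises ultraviolet lesions, had a mean normalized count of 493, or 215 per kb. Ddb1 thus stood far above every other gene of the pathway, whose levels ran from 75.7 to 489 per kb.

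Xpc, the sensor of distorted helices in the genome at large, had a mean normalized count of 2125 and 489 per kb. Xpa, which verifies the lesion, had 410 and 330 per kb. The helicases of the TFIIH complex that open the helix were at 1193 (429 per kb) for Ercc3 and 723 (202 per kb) for Ercc2. The incision genes, which cut on either side of the lesion, differed among themselves. Ercc1, the partner that brings the 5′ nuclease to DNA, had 648 (471 per kb), while Ercc4, the nuclease subunit itself, had 388 (75.7 per kb), the lowest of the pathway. The 3′ nuclease Ercc5 had 1166 (275 per kb). Ercc6, which couples repair to stalled RNA polymerase, had 884 (105 per kb).

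End joining followed with a median of 294 mean normalized counts per kb, and 3 of its 5 genes, Xrcc4, Xrcc5 and Xrcc6, lay above the background median, as they did per coding kb (median 790). Xrcc5 and Xrcc6, which encode the large and the small Ku subunit that ring the broken end, had mean normalized counts of 1735 and 1843, or 679 and 559 per kb. The order of the Ku subunits is the opposite without length and per coding kb, so it depends on how length is counted. Xrcc4, the scaffold of the final ligation, had 1005 (294 per kb). Its ligase Lig4 had 250 (49.8 per kb), the lowest of the pathway by both of these values. Prkdc, the DNA-dependent kinase that Ku recruits, had 753 (59.5 per kb) over a transcript of 12647 bases, the longest among the 51 genes. Per coding kb Prkdc was the lowest of the pathway, at 60.8 beside 91.6 for Lig4.

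Homologous recombination spanned 7.96 to 658 mean normalized counts per kb. Its median was 130 mean normalized counts per kb, and Nbn and Brca1 of 10 genes lay above the background median. Per coding kb the 2 genes above it were Nbn and Xrcc2. Nbn, the part of the MRN end-sensing complex that docks its kinase, had a mean normalized count of 1667 and 658 per kb. The other members of the complex had 859 (167 per kb) for Rad50, its coiled-coil ATPase, and 824 (146 per kb) for Mre11a, its nuclease. Brca1, which steers breaks into resection, had 2830 (431 per kb), at percentile 65.7 of the background.

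Palb2, Brca2 and Rad54l were much lower than Brca1. Palb2, which bridges Brca1 to Brca2, had a mean normalized count of 76.1 and 20.3 per kb. Brca2, the loader of the recombinase, had 160 and 14.9 per kb, at percentile 9.7. Rad54l, the motor protein that remodels the joint molecule, had 36.4 and 7.96 per kb, at percentile 4.8 and the lowest of the 51 genes by both values. Per coding kb Brca2 (16.0) and Fanca (10.5) were below Rad54l (16.2). The levels per kb of Brca1 were 28.9 times those of Brca2 and 21.2 times those of Palb2, in a comparison chosen after the values were seen. Between these levels per kb were Xrcc2 with 536 (165 per kb) and Xrcc3 with 196 (81.1 per kb), paralogs of the recombinase, and Rad52, an annealing protein, with 404 (114 per kb). Per coding kb, however, Xrcc2 stood at 643, above Brca1 at 521.

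None of the 5 damage signalling genes lay above the background median per kb, and the pathway median was 107. None did per coding kb either, whereas 4 of 5 did per kb of the median transcript. The kinase Atr, which answers to single-stranded DNA, had a mean normalized count of 1495 (185 per kb), and Atm, the kinase that answers to double-strand breaks, had 575 (58.6 per kb). Their targets were ordered the other way. Chek2, the kinase below Atm, had 386 (170 per kb), and Chek1, the kinase below Atr that guards replication, had 94.6 (24.9 per kb). Trp53bp1, a chromatin reader that shields broken ends from resection, had 1029 (107 per kb).

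In base excision and single-strand break repair the median was 172 mean normalized counts per kb, with 5 of 12 genes above the background median, or 3 of 12 (Parp1, Parp2 and Polb) per coding kb. The glycosylases that open the pathway by removing the damaged base were all at low to middle levels. Neil1 had a mean normalized count of 319 (188 per kb) and Neil2 had 319 (89.2 per kb), and both remove oxidized pyrimidines. Ogg1, the glycosylase of oxidized guanine, had 250 (156 per kb). Ung, which removes uracil, had 157 (50.7 per kb). Mutyh, which takes adenine from opposite oxidized guanine, had 78.2 (38.2 per kb), the lowest of the pathway.

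Of the genes of the later steps, all but the ligases lay above the background median per kb. Apex1, the endonuclease that cuts at the abasic site, had a mean normalized count of 284 (229 per kb), but 65.6% of its transcript is shared with an overlapping gene, as described later. Polb, the gap-filling polymerase, had 1458 (435 per kb), and Xrcc1, the scaffold that holds polymerase and ligase, had 955 (378 per kb). Of the ligases, Lig3, the partner of Xrcc1, had 588 (98.8 per kb), and Lig1, the replicative ligase, had 393 (123 per kb). The break sensors that mark nicks with poly(ADP-ribose) were among the highest of all 51 genes, with 2828 (730 per kb) for Parp1, at percentile 76.6, and 1131 (521 per kb) for Parp2.

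The mismatch repair genes had a median of 213 mean normalized counts per kb, and Msh6 alone lay above the background median. Per coding kb none of the 3 did. Msh6, which serves the recognition of single mispairs, had a mean normalized count of 1098 (258 per kb), and Msh3, which serves that of small loops, had 907 (213 per kb). Pms2, the endonuclease subunit that follows recognition, had 488 (79.2 per kb). Both genes of interstrand crosslink repair were low, with 105 (19.0 per kb) for Fancd2, the protein that is ubiquitinated at crosslinks, and 45.4 (10.1 per kb) for Fanca, a part of the ligase core that does so.

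All 3 RecQ helicases lay below the background median per kb. Recql had a mean normalized count of 751 (205 per kb), Wrn, which carries an exonuclease beside its helicase, had 961 (153 per kb), and Blm, which dissolves crossed recombination intermediates, had 245 (51.4 per kb). Mgmt, which lifts alkyl groups directly from guanine, had 349 (121 per kb). Its coding part is short, and per coding kb it stood at 551, above the background median of 532.

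The other genes of the same pathways were read from a second list of 78 symbols, of which 73 were found in the table, all at or above 10. Rad9a, Rad51b, Rad51d, Uvssa and Rmi2 were not analysed here. The 73 genes had a median of 152 mean normalized counts per kb, beside 165 for the 51 genes, and 29 of them lay above the background median. Nucleotide excision repair again had the highest median, at 736 per kb over 16 genes and 15 of 16 above the background median. Its highest mean normalized count was 9701 for Rpa1, a subunit of the single-strand binding protein that replication also uses, and its lowest was 398 for Ercc8.

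Homologous recombination had the lowest median of the other genes, 6.84 mean normalized counts per kb over 9 genes. Only the nuclease gene Mus81, with a mean normalized count of 791 (382 per kb), was above the background median, and its partner Eme1 had 15.8 (6.47 per kb). The other base excision genes had a median of 139 per kb over 13 genes, from 19.2 for the glycosylase Neil3 to 4799 for the replication clamp Pcna in mean normalized counts. The 6 other end joining genes had a median of 103 per kb and ran from 87.4 for the polymerase Polm to 1035 for Tdp2, which frees ends blocked by topoisomerase.

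The 10 other damage signalling genes had a median of 180 mean normalized counts per kb, and 3 lay above the background median. They ran in mean normalized counts from 34.3 for Clspn, an adaptor for Chek1 activation, to 1932 for Rnf168, a ubiquitin ligase at breaks. The 11 other crosslink genes had a median of 53.2 per kb and ran from 36.3 for Fanci to 870 for Fance. The 4 other genes around the RecQ helicases had a median of 120 per kb, from 40.1 for Recql4 to 899 for Rmi1. The mismatch genes Pms1 and Mlh3 had 294 and 934, and the direct reversal genes Alkbh2 and Alkbh3 had 211 and 903.

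**Figure D2:**
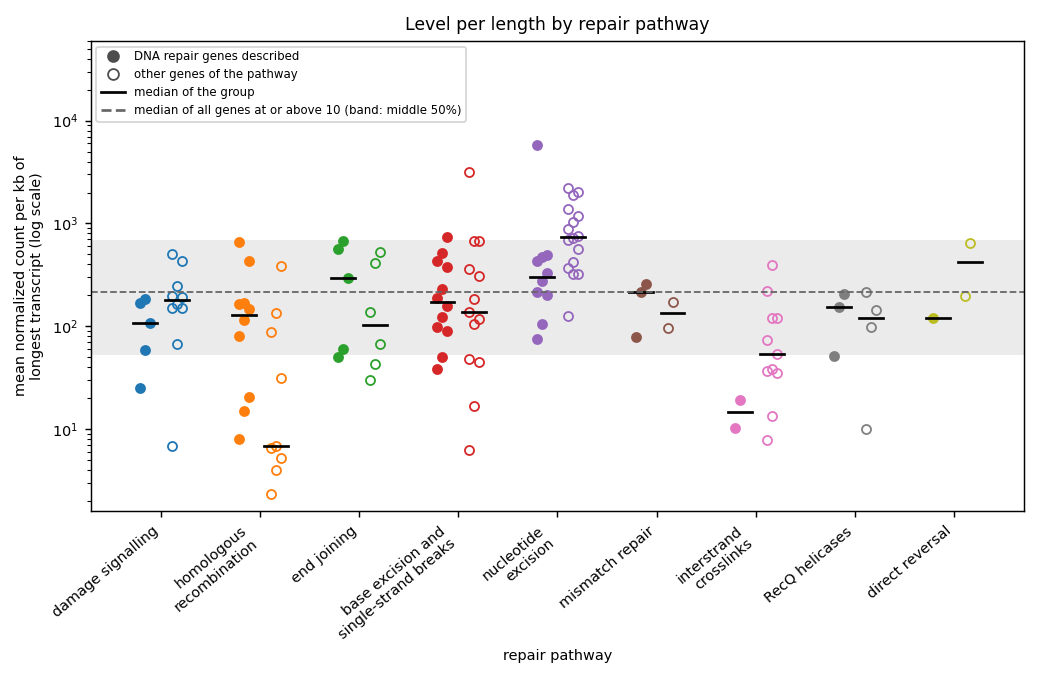
Mean normalized count per kb of longest transcript (y axis, log scale) for each repair pathway (x axis), with the 51 genes as filled points, the 73 other genes of the pathways as open points and a bar at each group's median. The dashed line is the background median of 214 and the band runs between its quartiles; nucleotide excision has the highest median of filled and of open points, while the crosslink genes and the other recombination genes lie low. By the other lengths end joining has the highest median of filled points.

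Within complexes and between paralogs, 13 pairs were compared per kb, and in 8 of them the levels were more than 2 times apart. For 7 of these 8 the gap was also above 2 times per kb of coding sequence. The widest was Ddb1 over Ddb2, with a ratio of 26.9, or 19.8 per coding kb. Ercc1 stood 6.23 times above Ercc4, its obligate partner, or 5.13 times per coding kb and 3.75 times per kb of the median transcript. Xrcc4 stood 5.89 times above Lig4, and this gap widened to 11.2 and 16.6 times by those lengths. Nbn stood 3.95 times above Rad50, and Xrcc1 stood 3.83 times above Lig3.

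Between the kinases the ratio was 0.32 for Atm over Atr and 0.15 for Chek1 over Chek2. Per coding kb the same ratios were 0.33 and 0.28, but per kb of the median transcript Atm over Atr was 0.95, so the gap between these kinases was not present by that length. Parp1 stood 1.40 times above Parp2. Some pairs lay close to 1 or changed sides with the length used. Xrcc5 over Xrcc6 was 1.21 and became 0.782 per coding kb, Mre11a over Rad50 was 0.874 and became 1.78, and Msh3 over Msh6 was 0.83 and became 1.02. Neil1 over Neil2 was 2.11 and became 0.844, so the order within these 4 pairs is not set by the data. Brca2 over Palb2 was 0.73, or 0.70 per coding kb, but 5.96 per kb of the median transcript, so its order is not set either.

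**Figure D3:**
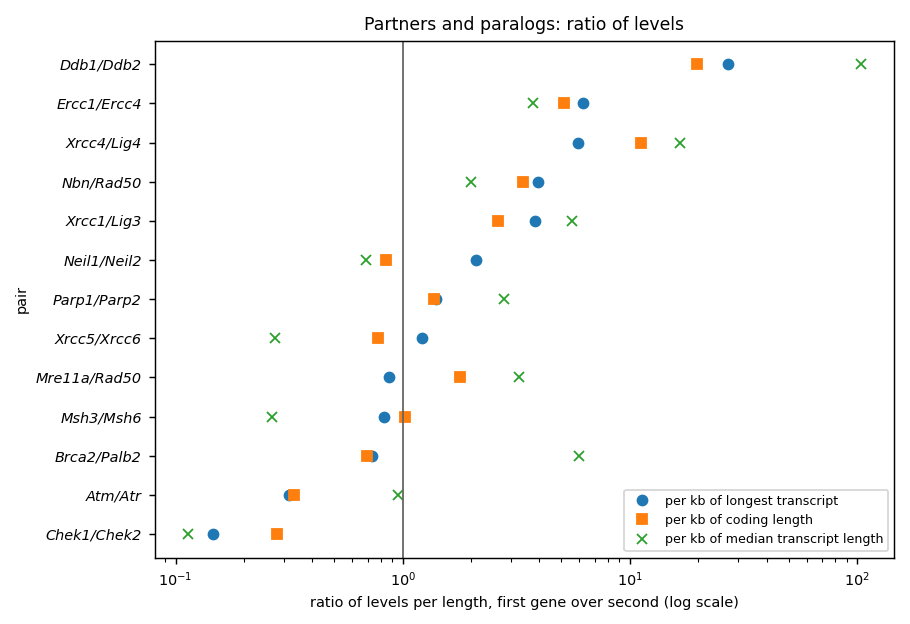
Ratio of levels per length, first gene over second (x axis, log scale), for 13 pairs of partners or paralogs (y axis), computed per kb of longest transcript, of coding sequence and of the median annotated transcript. The line marks 1; Ddb1 over Ddb2 is above 19 and Chek1 over Chek2 below 0.3 by all 3 lengths, while Xrcc5 over Xrcc6, Mre11a over Rad50, Msh3 over Msh6, Neil1 over Neil2 and Brca2 over Palb2 change sides.

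Several repair genes overlap a neighbour, and reads from the overlap belong to either gene unless strand is used. The library kit marks strand, but whether the authors' counting used it is not given in the sources used here. In 7 of the 51 genes more than 10% of the 50-base words of the longest transcript occur in another gene on either strand. The shares were 65.6% for Apex1 (with Pip4p1), 48.3% for Recql (with Pyroxd1), 30.1% for Lig3 (with Rffl), 26.1% for Ercc2 (chiefly Klc3), 22.7% for Ddb2 (with Acp2), 21.0% for Rad54l (with Lrrc41) and 20.8% for Trp53bp1 (with Tubgcp4). Each of these partners lies on the opposite strand. The levels of these 7 genes are uncertain, and how many of their counts came from the overlapping gene was not tested. By contrast, Parp1, Brca1, Brca2, Atm, Xrcc5, Nbn and Xpc shared no such word with another gene. Ddb1 shared 5.49% with Tkfc.

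Many repair genes start head to head with another gene, that is, on opposite strands with their starts within 1000 bases of each other. Such an arrangement was present at 21 of the 51 repair genes (41.2%), beside 2167 of 15509 protein-coding genes of the background (14.0%). The pattern was looked for after the levels had been seen and is given as a description. For 17 of these pairs both genes had a mean normalized count of at least 10. In 16 of the 17 the repair gene was the lower per kb of longest transcript. The neighbours had a median of 520 mean normalized counts per kb. By count with no length the repair gene was the higher at several pairs, among them Mre11a, Prkdc, Xpc, Pms2 and Wrn. The order thus depended on length, and no such share was computed for head-to-head genes at large. The 21 repair genes themselves had a median of 153 per kb, and the other repair genes had 166.

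The widest gaps were at Rad54l, Palb2 and Xrcc3, all of homologous recombination, a pathway that also holds Mre11a, whose gap was the narrowest. Rad54l, at 7.96 mean normalized counts per kb, starts 150 bases from Pomgnt1, at 986 per kb. Palb2, at 20.3 per kb, starts 56 bases from Dctn5, at 1233 per kb. Xrcc3, at 81.1 per kb, starts 297 bases from Zfyve21, at 1893 per kb. Lig4, at 49.8 per kb, starts 21 bases from Abhd13, at 520 per kb, and Mutyh, at 38.2 per kb, starts 83 bases from Toe1, at 328 per kb. Brca1, at 431 per kb, starts 194 bases from Nbr1, an autophagy receptor at 2004 per kb. The levels per kb were more than 4 times apart at each of these 6 pairs. They were also more than 4 times apart for Chek2 (170) beside Hscb (729) and for Pms2 (79.2) beside Aimp2 (321).

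At other pairs the levels were closer. Mre11a had 146 mean normalized counts per kb and Ankrd49, 202 bases away, had 154. Xpc had 489 and Lsm3, 40 bases away, had 650. Atm had 58.6, and Npat, a regulator of histone gene transcription that starts 307 bases away, had 118. Parp2 starts 109 bases from Ccnb1ip1, whose mean normalized count of 0.65 was below the minimum, so this pair was not among the 17.

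**Figure D4:**
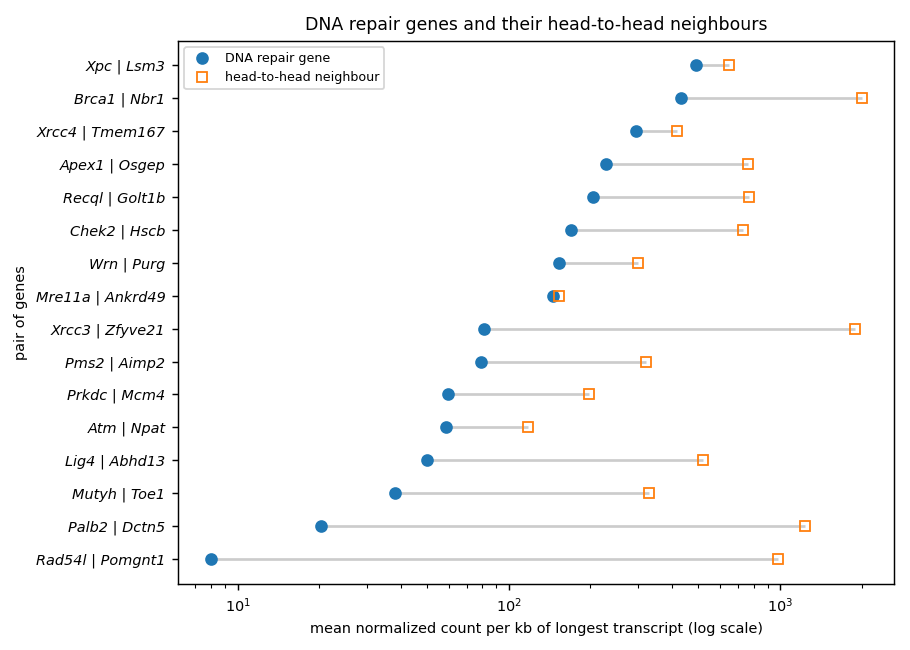
Mean normalized count per kb of longest transcript (x axis, log scale) of DNA repair genes (filled circles) and the genes that start head to head with them (open squares), 1 pair per line of the y axis. Of the 17 pairs, 1 in which the repair gene was the higher is not drawn, and in the 16 drawn the neighbour lies to the right. By count with no length the order is the other way at several of those drawn.

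The promoters of the repair genes were read from RefSeq sequence of build GRCm38.p6, over the 250 bases before a RefSeq start. The RefSeq start nearest to the annotated gene start (GENCODE) was taken, at any distance. They were read for 40 of the 51 genes and for 11576 genes of the background. The windows of Nbn, Ddb2, Xpc, Wrn, Prkdc, Neil2, Xrcc2, Rad50, Polb, Fancd2 and Ercc3 were not analysed here. The repair gene windows were rich in CG dinucleotides, with a median ratio of observed to chance CG content of 0.814 beside 0.685 over all windows. Head-to-head genes held 17 of the 40 repair gene windows but 1589 of the 11576. Among head-to-head windows the median ratio was 0.894 for repair genes beside 0.826 for all, and among the other windows 0.776 beside 0.657. A ratio of at least 0.6, usual for CpG islands, was present in 32 of 40 (80.0%) beside 60.2% of all windows. Their GC content was alike, with medians of 58.8% and 59.2%.

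Short motifs were searched on both strands, and different motifs may overlap. CCAAT, the letters bound by NF-Y, was present in 20 of 40 repair gene windows (50.0%) beside 35.8% of all windows. GGGCGG, the GC box, was present in 67.5% beside 55.4%. CCGGAA, an ETS core, was present in 30.0% beside 19.4%, and TGCGCA, an arm of the palindrome bound by NRF1, in 20.0% beside 10.7%. For CCGGAA the shares were closer among head-to-head windows, 41.2% beside 36.0%, and among the other windows, 21.7% beside 16.7%. TTTNNCGC, an E2F-like motif, was present in 12.5% beside 6.68%, and TATAAA in 5% beside 7.24%. These are counts of letters and not of bound sites, and no test was run on them.

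Among the 17 head-to-head repair genes with a window, CCAAT was present in 11 (64.7%), beside 38.3% of all head-to-head windows and 39.1% of the other 23 repair gene windows. Xrcc1 counts among the 11, although its window lies inside the annotated gene and not before the start that faces its neighbour. The stretches below are shown because they lie between a repair gene and its head-to-head neighbour and hold CCAAT, once to several times. Stretches at Chek2 and Pms2 meet these conditions as well, with 2 CCAAT matches each, and are not printed. In the stretches shown, capitals mark every match to the motifs searched, including the reverse complements such as ATTGG for CCAAT. The stretches are printed 5′ to 3′ on the strand of the repair gene and hold no annotated exon base. Their positions are chr9:53536741-53536921 for Atm, chr11:101551956-101552148 for Brca1, chr4:116123691-116123839 for Rad54l, chr12:111813880-111814129 for Xrcc3 and chr6:142387088-142387220 for Recql, all on the minus strand, and that of Atm ends 69 bases before the RefSeq start.
Atm: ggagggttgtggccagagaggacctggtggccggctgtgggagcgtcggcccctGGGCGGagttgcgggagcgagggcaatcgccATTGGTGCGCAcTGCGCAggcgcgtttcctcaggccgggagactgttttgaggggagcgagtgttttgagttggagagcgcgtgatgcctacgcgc
Brca1: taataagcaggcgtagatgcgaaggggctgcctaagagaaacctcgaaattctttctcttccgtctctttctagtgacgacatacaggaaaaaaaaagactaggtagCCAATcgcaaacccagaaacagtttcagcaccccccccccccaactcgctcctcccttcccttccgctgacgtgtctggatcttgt
Rad54l: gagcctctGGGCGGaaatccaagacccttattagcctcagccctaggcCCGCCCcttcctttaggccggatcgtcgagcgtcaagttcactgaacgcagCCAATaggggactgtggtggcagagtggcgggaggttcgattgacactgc
Xrcc3: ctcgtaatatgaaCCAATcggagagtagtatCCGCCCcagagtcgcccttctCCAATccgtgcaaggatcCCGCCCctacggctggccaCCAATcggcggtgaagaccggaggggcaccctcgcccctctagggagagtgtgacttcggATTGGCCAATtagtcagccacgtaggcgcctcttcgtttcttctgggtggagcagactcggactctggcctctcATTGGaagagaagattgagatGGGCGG
Recql: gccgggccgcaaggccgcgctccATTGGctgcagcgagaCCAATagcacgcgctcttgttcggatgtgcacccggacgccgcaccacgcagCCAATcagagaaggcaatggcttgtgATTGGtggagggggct

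In Atm, 1 CCAAT match stands directly beside the first of 2 TGCGCA matches, and a GC box lies upstream. Brca1 carries 1 CCAAT match and no other motif searched in this stretch, and Rad54l carries 1 CCAAT match with 2 GC boxes. Xrcc3 holds 6 CCAAT matches and 3 GC boxes, and Recql holds 4 CCAAT matches. The 3 printed stretches with 1 CCAAT match belong to genes at 7.96 (Rad54l), 58.6 (Atm) and 431 (Brca1) mean normalized counts per kb, beside 81.1 for Xrcc3 and 205 for Recql. Chek2 and Pms2, with 2 CCAAT matches each, were at 170 and 79.2 per kb.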

How the data were processed

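Poly(A) RNA of RPE/choroid from 3 Young and 3 Aged mice was sequenced, and both eyes of a mouse were pooled in a sample. According to the study's methods and the submitters' processing notes, read pairs were trimmed by the authors, aligned with STAR (GRCm38), quantified per transcript with Sailfish and scaled to total count, and DESeq2 was used for the ages. The deposited mean normalized count is a signal that the authors averaged over all 6 libraries, and it was the only column used. The 5 other columns of the deposited table hold the authors' own comparison of the ages (log2 fold change, its standard error, the test statistic, the p-value and its adjustment). They were not used, so the planned test of age was not run and no p-value or SD is given. The depth of single libraries is unknown. In genes read in a single library the means moved in 6 steps of 0.157 to 0.174, which gives size factors of 0.959 to 1.06. Even multiples of a step were more frequent than odd ones (1014 genes at 2 steps and 576 at 1), so counts are not independent fragments and no counting interval is given.

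Here levels were divided by the length of the longest GENCODE transcript of GRCm38 (alternatives: coding length, median transcript length, no length), which matched 97.1% of the background by symbol. A percentile is the share of background genes below a level. Per coding kb the background held its protein-coding genes only. Words of 50 bases were compared over all transcripts and both strands. Promoter windows came from RefSeq, and their orientation was checked against transcripts (36 of 40 matched). Every gene of the list is named, with the highest and lowest of the other genes of each pathway by count and the marker genes. Genes named for the pairs of starts and the overlaps, the ratios of Brca1, the counts above the background median by the other lengths, and the promoter analysis were chosen after the data were seen. The gene list, the other lists and the pairs were chosen with earlier results of these data known. The values of 1 pair of neighbouring starts are not reported here, although the counts of pairs include it. The percentile procedure was tested on simulated data. Computations used Python 3.11.15, numpy 2.4.6, pandas 2.3.3 and matplotlib 3.10.9.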

Additional observations from a re-analysis of the deposited data

How the results depend on the processing

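All 51 genes stayed at a minimum of 1, and 49 at a minimum of 50. The median percentile was 47.5 by count, 44.4 per kb, 41.8 among protein-coding genes and 62.0 among all genes above 0. The number of the 9 pathways with a median above that of the background was 2 per kb of the longest transcript (nucleotide excision and end joining) and 2 per coding kb (end joining and direct reversal), and it became 4 per kb of the median transcript and 4 by count with no length. The median transcript is often a short incomplete model, by construction of the annotation, which raises the levels of genes with many such models. Pairs more than 2 times apart numbered 8, 7 per coding kb and 11 per kb of the median transcript. The sides that changed per coding kb were Xrcc5 over Xrcc6 (0.782), Mre11a over Rad50 (1.78), Msh3 over Msh6 (1.02) and Neil1 over Neil2 (0.844). Per kb of the median transcript they were Xrcc5 over Xrcc6 (0.273), Brca2 over Palb2 (5.96), Mre11a over Rad50 (3.26) and Neil1 over Neil2 (0.691). No paired analysis was possible because the column used is a mean over all 6 libraries, and for the same reason the planned test of age and its alternatives, leaving out a mouse included, were not run.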
